A study of Mus musculus with 4 samples.

Results

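Cluster c6 is a group of cells that the authors named c6 in a single-cell study of mouse hematopoietic stem cells (HSC), and its leading genes were those of maturing neutrophils. Its members here are the 20062 genes of the authors' deposited table that sets c6 against the cells outside it, which is every gene listed for the series. The series holds 4 samples of purified HSC from bone marrow, 2 labelled young and 2 labelled old, isolated at steady state. All 4 came from mice carrying Gfp-Lc3, a transgene that joins green fluorescent protein to LC3, a protein of the autophagosome membrane, so young and old shared it. The tables hold no sample, age, reporter level or cell count, so young and old cells of c6 were not compared here. The cells of c6 were estimated at 0.996% of all cells, from the weights that make the 7 clusters average to the overall mean over 990 weakly expressed genes. Other ranges of expression gave estimates between 0.516% and 1.11%, lower where expression was higher. The estimate treats fold changes as ratios of mean levels, which they matched less well at high expression, so it is rough.

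Neutrophils are short-lived phagocytes that the bone marrow makes from granulocyte-monocyte progenitors. As they mature they load granules in a fixed order. Primary granules, filled in promyelocytes, hold myeloperoxidase and serine proteases, specific granules, filled in myelocytes, hold lactoferrin and cathelicidin, and gelatinase granules and secretory vesicles come last. Transcription factors of the C/EBP family and PU.1 (encoded by Spi1) drive this sequence, and C/EBP epsilon (Cebpe) is needed for the specific granules. Cell division, ribosome production and stem cell genes are shut down along the way.

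Each fold change is on a log2 scale and was limited by the authors to the range from -4 to 4, so a value at a limit says only that the difference was at least that large. Genes with an adjusted p-value under 0.05, as the authors computed it, are named as called. The cluster was drawn from the cells whose genes are compared here, so a call describes c6 and is no independent test of it. In the authors' deposited table all 6 marker genes were called higher, each with the largest value the scale allows, 4. The smallest adjusted p-value among them in the authors' deposited table was 1.13e-148, for Pglyrp1, a peptidoglycan recognition protein of the granules. For S100a8 and S100a9, the subunits of the antimicrobial protein calprotectin, the authors' deposited table gave 5.25e-133 and 1.3e-126. Lyz2 (lysozyme) and Lcn2 (lipocalin 2, which binds bacterial siderophores) followed with adjusted p-values of 1.24e-109 and 9.48e-100 in the authors' deposited table. Cebpe had an adjusted p-value of 1.85e-25 there, at a low log2 mean expression over all cells of -3.44. In c5, a cluster of granulocyte-monocyte progenitor genes, 5 of the 6 markers also stood at 4, and Lyz2 was at 3.03. Lyz2 has a near-identical neighbour, Lyz1, and reads may have been split between them. In GENCODE M21 on GRCm38, S100a8 lies at chr3:90668978-90670035 and S100a9 at chr3:90692632-90695721, on opposite strands. Cebpe lies at chr14:54710360-54712174, and Lcn2 at chr2:32384633-32388252, both on the minus strand.

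The promoters of 5 of the genes highest in c6 are shown as examples, since C/EBP factors are known to act on granule genes. Each runs from 250 bases before the RefSeq gene start to 50 bases after it on the gene's own strand, in build GRCm38.p6. Capitals mark matches to the C/EBP pattern TTGCNNAA on either strand. Ngp (neutrophilic granule protein) is at chr9:110419558-110419857 on the plus strand, with matches 138 and 11 bases before the start. Ltf (lactoferrin, which binds iron) is at chr9:111019042-111019341 on the plus strand, with a match 75 bases before it. Lcn2 is at chr2:32387690-32387989 and S100a9 at chr3:90695672-90695971, both on the minus strand, with a match 216 and 236 bases before the start. Camp (cathelicidin, an antimicrobial peptide) is at chr9:109849407-109849706 on the minus strand and holds no match in this window. S100a8, Lyz2, Chil3 and Pglyrp1, which were also at the upper limit in c6 and are not shown, hold no match either.
Ngp promoter: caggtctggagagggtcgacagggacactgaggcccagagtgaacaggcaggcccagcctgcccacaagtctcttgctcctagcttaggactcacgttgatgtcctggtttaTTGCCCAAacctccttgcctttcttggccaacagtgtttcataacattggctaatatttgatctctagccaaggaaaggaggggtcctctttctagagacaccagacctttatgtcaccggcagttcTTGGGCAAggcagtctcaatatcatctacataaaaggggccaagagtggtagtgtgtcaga
Ltf promoter: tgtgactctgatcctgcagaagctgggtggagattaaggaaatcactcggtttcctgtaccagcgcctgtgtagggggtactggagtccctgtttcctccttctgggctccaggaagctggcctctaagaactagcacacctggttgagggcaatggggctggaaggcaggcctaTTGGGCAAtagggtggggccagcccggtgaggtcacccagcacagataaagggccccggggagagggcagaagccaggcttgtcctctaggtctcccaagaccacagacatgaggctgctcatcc
Lcn2 promoter: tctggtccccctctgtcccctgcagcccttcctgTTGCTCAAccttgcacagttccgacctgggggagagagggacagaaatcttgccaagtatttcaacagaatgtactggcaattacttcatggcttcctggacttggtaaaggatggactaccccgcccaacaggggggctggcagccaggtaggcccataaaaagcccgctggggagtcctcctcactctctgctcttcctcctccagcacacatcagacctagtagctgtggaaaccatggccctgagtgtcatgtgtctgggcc
S100a9 promoter: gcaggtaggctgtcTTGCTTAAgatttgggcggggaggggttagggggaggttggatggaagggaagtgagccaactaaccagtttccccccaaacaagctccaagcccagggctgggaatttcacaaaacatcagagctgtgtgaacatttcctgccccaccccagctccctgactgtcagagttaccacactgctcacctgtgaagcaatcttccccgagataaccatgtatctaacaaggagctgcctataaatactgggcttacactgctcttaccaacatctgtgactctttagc
Camp promoter: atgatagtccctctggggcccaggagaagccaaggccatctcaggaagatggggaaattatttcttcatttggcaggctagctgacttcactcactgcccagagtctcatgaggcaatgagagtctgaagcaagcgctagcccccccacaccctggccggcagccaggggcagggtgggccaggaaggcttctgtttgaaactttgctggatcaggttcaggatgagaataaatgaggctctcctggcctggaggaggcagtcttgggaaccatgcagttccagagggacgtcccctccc

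Among the genes of the tables that have a RefSeq promoter, 1511 of 13911 (10.9%) held the C/EBP pattern. It was in 6 of the 16 specific granule genes with a promoter (37.5%) and in 17 of the 74 expressed genes called at the upper limit in c6 (23.0%). Of the expressed genes called at the lower limit, 210 of 2134 (9.84%) held it. The PU.1 pattern GAGGAAGT was in 3.75% of genes with a promoter, in 7 of the 74 at the upper limit and in 5 of the 14 genes for ITAM adaptors and Fc receptors that have a promoter. It was in 4 of the 16 specific granule genes (25%) and in 4 of the 12 primary granule and promyelocyte genes with a promoter (33.3%). It was in 0 of the 20 late neutrophil genes with a promoter, of which 3 held the C/EBP pattern (15%). The GATA pattern AGATAAG was in 2.70% of genes with a promoter, in 0 of the 74 and in 2 of the 20 late neutrophil genes (10%). These are matches of letters in a short window, with no test, and they do not show that a factor binds there.

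Most expressed genes were called lower in c6. The authors' deposited table gave 1044 of 20062 genes called higher (5.2%) and 7155 called lower (35.7%). At the upper limit stood 526 genes (2.62%) and at the lower limit 11373 (56.7%). Expressed genes are those at or above the median log2 mean expression over all cells of -4.29. Over these 10027 genes the median log2 fold change in the authors' deposited c6 table was -2.24, against -0.24 in c5, a cluster of granulocyte-monocyte progenitor genes, and -0.92 in c7, a cluster of B-lineage genes. The medians of clusters c1 to c4 lay between -0.12 and 0.19 in the authors' deposited tables. Relative values are the log2 fold change minus the c6 median of -2.24. Of the expressed genes, 7.53% were called higher and 69.0% lower in the authors' deposited table. The share at the lower limit ran from 98.2% in the lowest of 10 equal bins of genes by mean expression to 19.6% in the highest, where c7 had 6.38% and c5 had 0%. Depth per cell in c6 is unknown here, and its part in the shift was not tested.

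**Figure D1:**
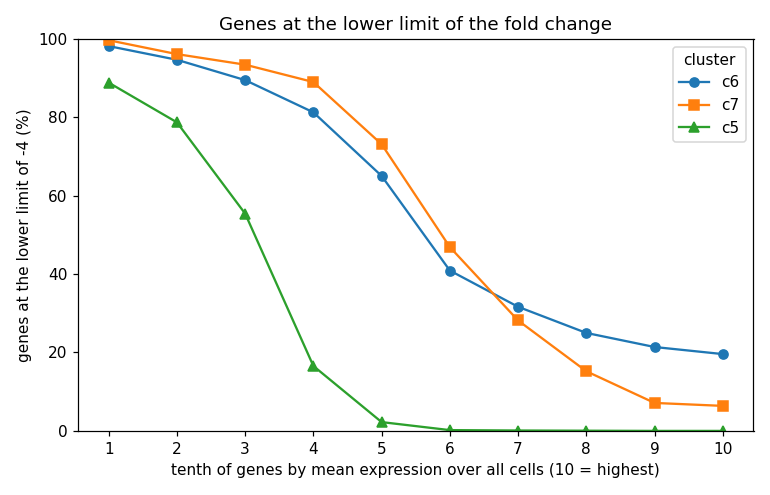
Percentage of genes at the lower limit of -4 (vertical axis) in each of 10 equal bins of the 20062 genes ranked by mean expression over all cells (horizontal axis, 10 the highest), for clusters c5, c6 and c7. In c6 19.6% of the most highly expressed bin stood at the limit, against 6.38% in c7 and 0% in c5.

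Specific granule genes were higher in c6 as a group. Of 17 members, 16 were called higher and 0 lower in the authors' deposited table, all 16 at the upper limit, and the list median was 4, or 6.24 relative. The 16 include Ltf, Camp, Ngp, Lcn2, Chil3 (a chitinase-like protein), Fcnb (ficolin B), Mmp8 (neutrophil collagenase), Cd177 and Olfm4. Camp, Ngp and Ltf had adjusted p-values of 1.62e-33, 2.22e-44 and 1.53e-30 in the authors' deposited table. Bpi, which encodes a protein that kills bacteria by raising their permeability, was the member not called. It stood at -4 in the authors' deposited table, with a log2 mean expression over all cells of only -11.23. The pattern was not particular to c6, since in c5 the same list had a median of 4, with 15 of 17 members at the upper limit.

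Genes of primary granules and promyelocytes did not share this pattern. Of 13 members, 3 were called higher, 6 were called lower and 4 were not called in the authors' deposited table, with a median of -1.32 (0.92 relative). Prtn3 (proteinase 3) stood at the lower limit of -4 with an adjusted p-value of 7.27e-45 in the authors' deposited table. Ctsc, which activates the granule proteases, was lower there at -3.99. Mpo (myeloperoxidase), Elane (neutrophil elastase) and Ctsg (cathepsin G) were not called, at -0.75, -1.32 and -1.49 in the authors' deposited table. Their adjusted p-values were 0.922, 0.808 and 0.831. In c5 the authors' deposited table put all 3 of these genes at 4, and the difference between the clusters was not tested. The members called higher in c6 were Igsf6 at 4, Serpinb1a, an inhibitor of these proteases, at 3.03, and Plac8 at 1.50 in the authors' deposited table. Ms4a3, a gene of granulocyte-monocyte progenitors, was at 1.71 and not called.

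**Figure D2:**
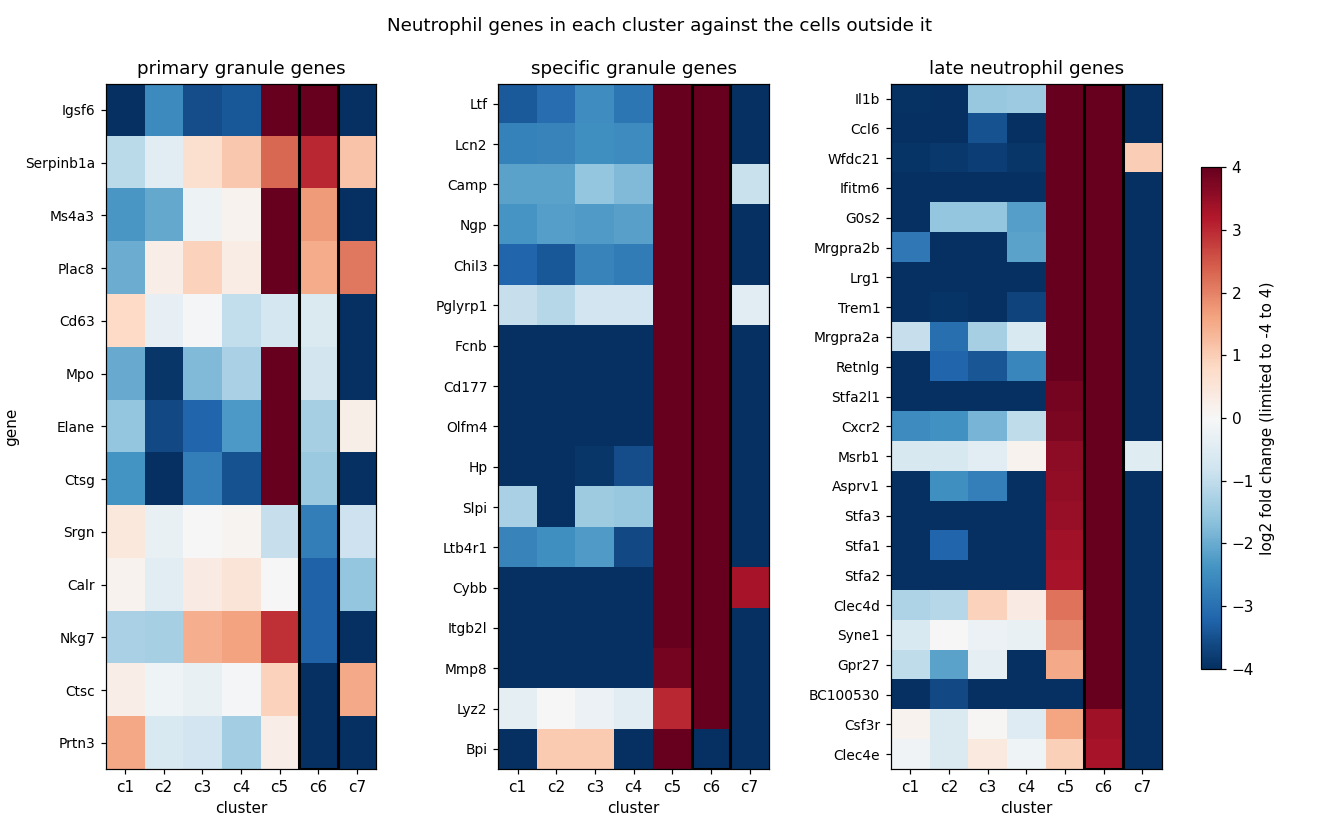
Log2 fold change of each cluster (columns) against the cells outside it, limited to -4 to 4, with c6 framed. The genes (rows) are those of primary granules and promyelocytes, specific granules and late neutrophils. In c6, 16 of 17 specific granule genes stood at the upper limit, while Mpo, Elane and Ctsg lay between -1.49 and -0.75 and Prtn3 was at -4.

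Genes of the last granules and of late neutrophils were higher as well. For gelatinase granules and secretory vesicles, 11 of 14 members were called higher and 1 lower in the authors' deposited table. At 4 were Mmp9 (gelatinase B), Itgam (the CD11b integrin chain), Fpr1 and Fpr2 (receptors for bacterial formyl peptides), Anxa1 and Slc11a1, a metal transporter of the phagosome. Cr1l was lower at -0.84 in the authors' deposited table, and Alpl (alkaline phosphatase) stood at -4 without a call. Of 24 late neutrophil genes, 23 were in the table, and 19 of them were called higher and 0 lower. Retnlg (resistin-like gamma), Cxcr2 (the receptor for neutrophil-attracting chemokines) and Il1b (interleukin 1 beta) were each at 4 in the authors' deposited table. Their adjusted p-values were 2.4e-28, 8.9e-22 and 0.00125. Csf3r, the receptor for the growth factor G-CSF, was called higher at 3.38 in the authors' deposited table. The 4 members without a call, Stfa1, Stfa2, Stfa3 and BC100530, stood at 4 and belong to a family of near-identical stefin genes, as does Stfa2l1, which was called. The paralogs Mrgpra2a and Mrgpra2b were both at 4, and reads may have been shared between them. Late neutrophil genes were high in c5 too, with a median of 3.77 and 22 of 23 above 0. The c5 median of the gelatinase granule and secretory vesicle list was 3.45.

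The S100 genes split. S100a8, S100a9 and S100a6 stood at 4 and S100a11 at 3.84 in the authors' deposited table, while S100a4 and S100a10 were lower at -4, S100a1 at -3.17 and S100a13 at -0.60. Of 16 genes of early neutrophil progenitors, 14 were called higher, among them Orm1, an acute phase protein, and Ly6g, the antigen used to sort mouse neutrophils. Tuba1b, an alpha tubulin, was lower at -4 in the authors' deposited table. The c5 median of the early neutrophil progenitor list was 4.

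The machinery of killing and migration was higher in c6 for most members. Of 9 genes of the phagocyte NADPH oxidase, which makes superoxide, 8 were called higher and 0 lower in the authors' deposited table, with a median of 3.56 (5.80 relative). The membrane subunit Cybb and the cytosolic subunits Ncf1 and Ncf4 were at 4, and the other membrane subunit Cyba was at 3.67 in the authors' deposited table. The GTPase Rac2 was at 2.88 and the broadly expressed Rac1 at 0.47. Of 19 genes of chemotaxis and adhesion, 15 were called higher and 3 lower, with a median of 4. The receptors Cxcr2, Ccr1, C5ar1 (complement C5a) and Ltb4r1 (leukotriene B4), and the integrin chains Itgb2, Itgam and Itgal stood at 4 in the authors' deposited table. Cxcr4, which holds neutrophils in the marrow, was higher at 1.78. The members called lower were Itga4 at -2.31, Icam2 at -3.35 and Esam, a junction protein of HSC and endothelium, at -4 in the authors' deposited table. Ccr2, a monocyte chemokine receptor, was at -4 without a call, where c5 had 4. The c5 medians were 2.48 for the oxidase genes and 3.61 for chemotaxis and adhesion.

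Of 18 ITAM adaptors, Fc receptors and related activating and inhibitory receptors and kinases, 17 were called higher and 0 lower in the authors' deposited table, with a median of 4. The adaptors Fcer1g and Tyrobp had adjusted p-values of 2.9e-100 and 8.14e-90 at 4. The activating Fc receptors Fcgr3 and Fcgr4 and the amplifying receptors Trem1 and Trem3 were also at 4 in the authors' deposited table, and the kinase Syk reached 1.91. Pira2 and Pirb are close paralogs whose reads may have been split. The high-affinity receptor Fcgr1 was not called, at -4. In c5 this list also had a median of 4. Of 19 genes of pattern recognition and the inflammasome in the table, 8 were called higher and 1 lower. Tlr2 (bacterial lipoproteins) was at 2.63, the adaptor Myd88 at 1.29, and Nlrp3, Tlr13 and the interleukin 1 antagonist Il1rn at 4 in the authors' deposited table. The inflammasome adaptor Pycard was lower at -0.69, and Tlr4, Casp1 and Gsdmd were not called, at 0.23, -0.34 and -0.14 there.

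Of 11 genes of leukotriene and prostaglandin synthesis, 3 were called higher and 4 lower, and the 3 form the route from 5-lipoxygenase to leukotriene B4. Alox5 (5-lipoxygenase) was at 4, its partner Alox5ap at 2.54 and Lta4h, which makes leukotriene B4, at 2.28 in the authors' deposited table. Ltc4s (leukotriene C4) and Hpgds (prostaglandin D2) were lower at -4, Ptgs1 at -1.51 and Pla2g4a at -2.14. Of 21 actin genes, 19 were called higher and 1 lower in the authors' deposited table, with a median of 1.89 (4.13 relative). The Src-family kinase Fgr and the severing protein Gsn were at 4, Tmsb4x (thymosin beta 4) at 3.58, Lsp1 at 3.18 and Actb at 2.32 in the authors' deposited table. Tmsb10, a relative of Tmsb4x, was lower at -1.30, and Was was not called at 0.12.

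The list of 28 granulocyte transcription factors also holds factors of stem cells and other lineages, such as Meis1, Hoxa9 and Gata1. Of the 28, 9 were called higher and 12 lower in the authors' deposited table, with a median of -1.06 (1.18 relative). Cebpe, Cebpd and Mxd1, which opposes MYC, were at 4, Spi1 at 3.23, Cebpa at 3.10, Rara at 2.89 and Cebpb at 1.24 in the authors' deposited table. Spi1 had an adjusted p-value of 6.58e-50 and Cebpa, at a log2 mean expression of -6.02, one of 0.024. Gfi1, a repressor needed for neutrophil development, was at -0.10 and was not called. Irf8 and Klf4, which direct monocyte fate, stood at -4 without a call in c6, while both were at 4 in the authors' deposited c5 table. The stem cell and progenitor factors Meis1, Hoxa9, Gata2, Gfi1b and Myc were lower at -4 in c6, and Myb was at -3.45 and Runx1 at -2.37. Egr1 and Per3 were also lower at -4 in the authors' deposited table. Cbfb, the partner of Runx1, was lower at -1.31, Jund at -1.07 and Xbp1 at -1.04, with all 3 above the median of expressed genes.

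Of 16 growth factor receptors, 6 were called higher and 7 lower in the authors' deposited table. The decoy receptor Il1r2 was at 4, Csf1r at 3.78, Csf2rb at 3.50, Csf3r at 3.38, Csf2ra at 2.38 and Il6ra at 2.20 in the authors' deposited table. Kit, Flt3, Epor and Tek, receptors of stem cells and early progenitors, were lower at -4 in the authors' deposited table. Ifngr1 (the interferon gamma receptor) and Tnfrsf1b (a receptor for tumour necrosis factor) were lower at -0.94 and -1.42 there, or 1.30 and 0.82 relative.

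Genes tied to the lobed nucleus were mixed. Of 15 genes of the nuclear envelope and chromatin, 6 were called higher and 6 lower in the authors' deposited table. Lbr (the lamin B receptor, needed for lobulation) was at 1.61, Padi4, which citrullinates histones, at 2.98, and Hmgb2 at 2.26 in the authors' deposited table. Lmna (lamin A/C) and the linker histone H1f0 were lower at -4, and Hmgb1 was at -3.79. Lmnb1 was not called at -0.48. Among 14 genes of survival and death, Mcl1, on which neutrophil survival depends, was higher at 1.22 and Bid at 1.05 in the authors' deposited table. Bcl2 was lower at -4, Casp8 at -2.76 and Bax at -2.65. The near-identical copies Bcl2a1a, Bcl2a1b and Bcl2a1d stood at 3.57, 0.34 and -4, all without a call.

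The labelled cell type, HSC, was checked against its genes. All 16 HSC identity genes, among them Procr, Slamf1, Hlf, Mecom and Mllt3, were called lower at -4 in the authors' deposited table, with adjusted p-values of 4.32e-17 for Procr and 2.01e-42 for Hlf. So c6 goes against the label of the sorted cells, and is described here by its leading genes. Of 24 genes that mark aged HSC, 22 were lower and 0 higher in the authors' deposited table. Over all expressed genes 69.0% were called lower and 27.7% stood at -4. The HSC identity and aged HSC medians were both -1.76 relative. In c7, 12 of the 16 HSC identity genes and 20 of the 24 aged HSC genes also stood at -4. Slamf1 is in both lists, and these counts give no age for the cells. Multipotent progenitor genes split, with Cd52 at 4, Satb1 at 3.06 and Plac8 at 1.50 called higher, and Cd34, Cd27, Flt3 and Mn1 called lower at -4 in the authors' deposited table.

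Markers of other lineages were called higher in c6 about as often as any gene. Over the 9 lists of other lineages 7 of 107 genes were called higher in the authors' deposited table (6.54%), against 5.2% of all genes. Of 18 monocyte and macrophage genes, 2 were called higher in the authors' deposited table, Ly6c2 at 4 and Csf1r at 3.78, and 12 of the 18 stood at the lower limit. That limit held 56.7% of all genes, and only 6 of the 18 were expressed. The same 18 genes had a median of 4 in c5. For B cells 1 of 14 was higher, Ighm at 3.63, while Cd79a was not called at -1.89, and Cd79b was lower at -4 and Pax5 and Ebf1 were at -4 without a call in the authors' deposited table. Ighm was at 4 in both c5 and c7. For T and NK cells 1 of 12 was higher, Cd3d, at 4 with an adjusted p-value of 0.00864, and the other 11 were at -4 in the authors' deposited table. Of 7 mast cell and basophil genes in the table, Hdc (histidine decarboxylase) was higher at 4 and the other 6 were at -4. Only 1 of the 12 and 1 of the 7 were expressed, and most weakly expressed genes of any kind stood at -4 in c6. Of 8 eosinophil genes there, Ear2 was called higher at 4, and its paralog Ear1 was at 4 without a call. Of 15 erythroid genes 0 were called higher and 4 lower in the authors' deposited table, and of 12 dendritic cell genes 0 were higher and 6 lower. Of 11 megakaryocyte genes, Plek, also an actin regulator of phagocytes, was higher at 1.89, and 6 were lower. Of 10 endothelial and stromal genes, 0 were higher and 3 lower. The sources used here do not say how doublets were treated, and their part in Ighm and Cd3d was not tested.

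**Figure D3:**
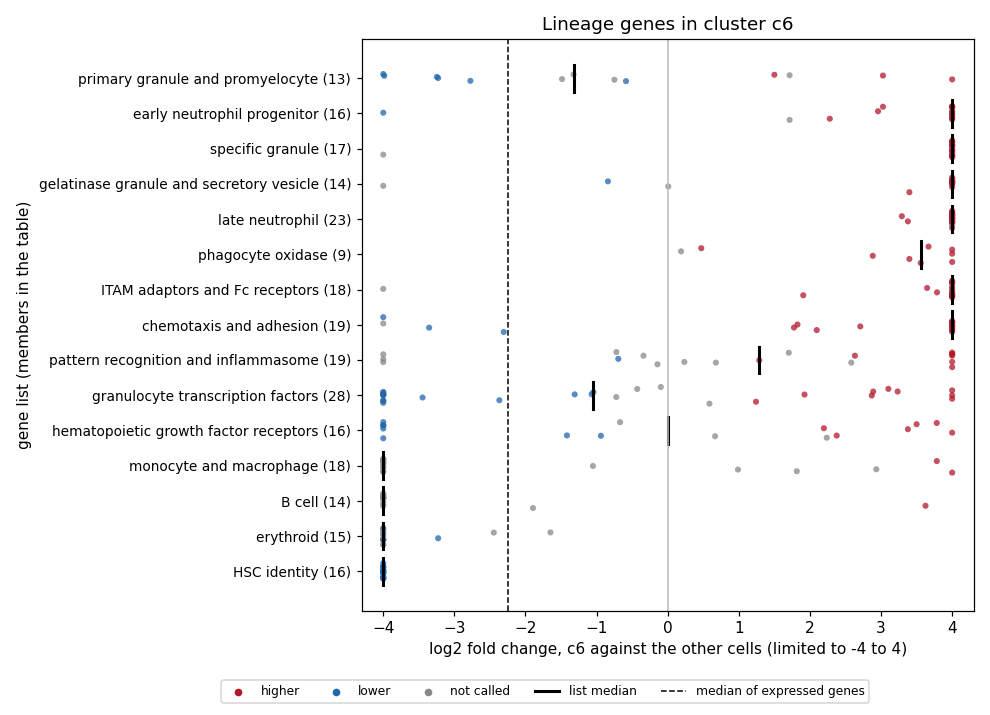
Log2 fold change in c6 against the other cells (horizontal axis, limited to -4 to 4) for the members of each lineage list (points), coloured by the call, with the list median as a black bar and the median of expressed genes, -2.24, as a dashed line. Specific granule, late neutrophil and ITAM lists gather at 4, and HSC identity genes at -4.

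Genes of cell division were lower. Of 37 S phase genes, 34 were called lower and 0 higher in the authors' deposited table, with a median of -3.70 (-1.46 relative). Of 50 genes of G2 and M phase, 39 were lower and 2 higher, with a median of -3.82 (-1.58 relative). The members higher were Hmgb2 and Lbr, which the nuclear list also holds. Of all expressed genes 69.0% were called lower. With members at either limit left out, the relative median was -0.25 for G2 and M phase and -0.89 for S phase. The relative means of all members were -0.70 and -1.11. Cdk1, Ccnb1 and Plk1 stood at -4. Mki67, which marks dividing cells, was at -2.61 (-0.37 relative) with an adjusted p-value of 0.0042, where c5 had 1.87 and c4 had 4 in the authors' deposited tables.

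Ribosome genes were among the lowest of the abundant transcripts. Called expressed genes tied at -4 numbered 2759. The naming rule took the 10 of these with the highest mean expression, so it favoured abundant transcripts. Among the 10 were Rpl13, Rpl23, Rpl32, Rplp1, Rpl39, Eef1a1, Rps20, Rps3a1 and Rps28, all at -4 in the authors' deposited table. Eef1a1 is the factor that brings aminoacyl-tRNA to the ribosome, and the others named encode ribosomal proteins. Over 82 ribosomal protein genes, 79 were called lower and 1 higher in the authors' deposited table, with a median of -3.95 (-1.72 relative). The medians of the same genes in c5 and c7 were -0.76 and -0.55. The member called higher was Rpl3l, at 4 with an adjusted p-value of 0.0014 and a log2 mean expression of only -8.54. Of 28 genes of ribosome biogenesis, 27 were lower and 0 higher. Npm1 and Ncl (nucleolar proteins), Fbl (fibrillarin) and Myc were at -4 in the authors' deposited table. The relative median of this list was -1.76, so it too lay below the general shift.

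Mitochondrial genes differed by the genome that encodes them. The 13 mitochondrially encoded genes were all called lower in the authors' deposited table, with a median of -3.88 (-1.64 relative), the least low being mt-Co1 at -2.37. Of 40 nuclear genes of the respiratory chain, 39 were called lower and Ndufa1 higher at 0.53. Their median was -1.59, which is 0.65 relative, and 33 of the 40 lay above the median of expressed genes. The long nuclear RNA Malat1, named after its value was seen, was lower at -1.60 in the authors' deposited table, or 0.64 relative.

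Glycolysis genes were more often called higher than lower. Of 21 members, 12 were called higher and 5 lower in the authors' deposited table, with a median of 0.88 (3.12 relative). Pygl (glycogen phosphorylase), Hk3 (a hexokinase) and Slc16a3 (a lactate exporter) were at 4, Slc2a3 (the glucose transporter GLUT3) at 2.09 and Gapdh at 0.88 in the authors' deposited table. Pfkm and Pfkl, subunits of phosphofructokinase, were lower at -4 and -2.57, and Ldha was not called at -0.20. Slc2a3 was at -0.14 in c5 and -4 in c7. Over the 21 members the c5 median was 0.64 with 15 above 0, against 14 above 0 in c6. The list was thus not particular to c6, and its c7 median was -1.95.

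**Figure D4:**
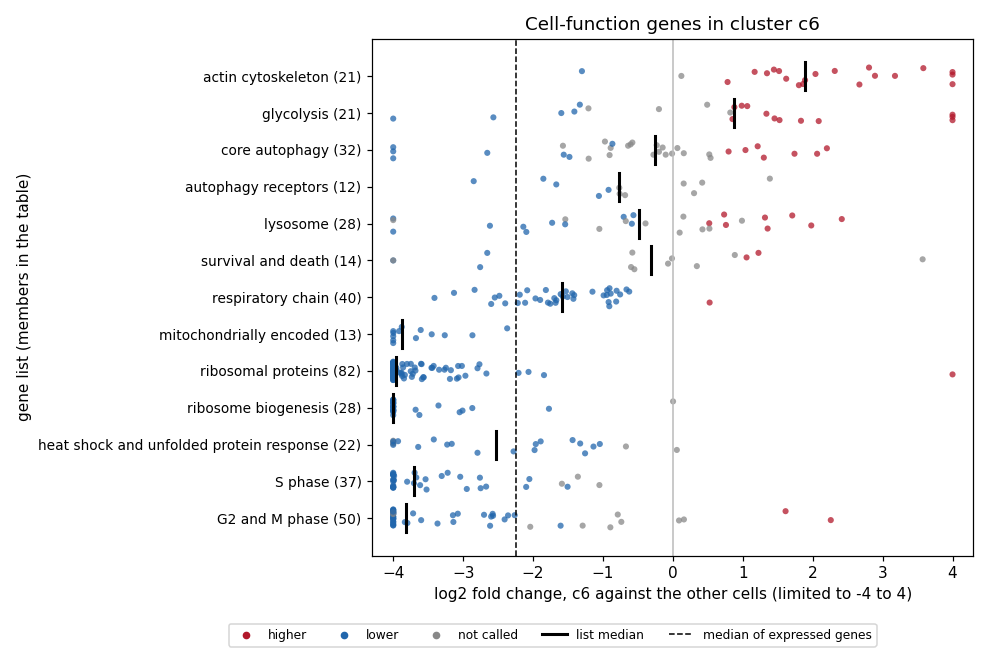
Log2 fold change in c6 against the other cells (horizontal axis, limited to -4 to 4) for the members of lists of cell function (points), coloured by the call, with list medians as black bars and the median of expressed genes as a dashed line. Actin and glycolysis genes lie mostly above 0, and the medians of the ribosomal, mitochondrially encoded and cell cycle lists lie near -4.

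Autophagy genes, the subject of the reporter, were near 0 and so above most genes of c6. Of 32 core genes, 7 were called higher and 7 lower in the authors' deposited table, with a median of -0.25 (1.98 relative), and 28 of the 32 lay above the median of expressed genes. The members higher were Wipi1 at 2.20, the LC3 conjugation enzymes Atg3 at 2.06 and Atg7 at 1.74, Atg16l2 at 1.30, Atg9a at 1.21, Gabarap at 1.04 and Atg101 at 0.80 in the authors' deposited table. The LC3 genes themselves were not called, Map1lc3a at 0.54 and Map1lc3b at -0.23, with adjusted p-values of 0.223 and 0.288. Gabarapl1, Atg14 and Pik3r4 were lower at -4. Of 12 cargo receptors, 0 were called higher and 5 lower in the authors' deposited table, where 69.0% of expressed genes were called lower. Their median was 1.48 relative, and 11 of the 12 lay above the median of expressed genes. Sqstm1 (p62) was not called at -0.76. Lysosome genes were divided, with 8 of 28 higher and 10 lower and a median of -0.48 (1.76 relative). Ctsh was at 2.42, Neu1 at 1.98, Tfeb, a regulator of lysosome genes, at 1.71 and Ctsd at 1.32, and Ctsl and Gaa were lower at -4 in the authors' deposited table.

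Of 26 interferon response genes, 2 were called higher, Ifitm6 at 4 and Ifi27l2a at 3.60, and 10 lower in the authors' deposited table, with a median of -0.78 (1.46 relative). Of 22 genes of heat shock and the unfolded protein response, 17 were lower and 0 higher, with a median of -2.54 (-0.30 relative). Hsp90aa1 was at -3.93 and Hsp90ab1 at -3.64, and the endoplasmic reticulum chaperone Hspa5 was lower at -1.33 in the authors' deposited table. Of 12 protease inhibitors in the table, 4 were higher, Slpi at 4, Serpinb2 at 3.31, Serpinb1a at 3.03 and Timp2 at 2.20, and 2 were lower.

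The genes that led c6 were also followed through the other tables. The authors' deposited table called 92 expressed genes at the upper limit in c6. By mean expression over all cells the leading 15 by the naming rule were S100a9, S100a8, Camp, Lyz2, Ngp, S100a6, Lcn2, Retnlg, Wfdc21, Anxa1, Ltf, Cd52, Fcer1g, Chil3 and Tyrobp. The 92 genes had a median log2 fold change of 3.97 in c5 and of -4 in c7 in the authors' deposited tables. Their medians in c1, c2, c3 and c4 were -2.34, -1.24, -1.28 and -1.54. In c5 the authors' deposited table gave 3.98 for Retnlg, 3.03 for Lyz2 and 2.63 for Anxa1, and the lowest value of the 92 was S100a6, a calcium-binding protein, at 0.98. In c7 Fcer1g was at -4 and Tyrobp at 1.33. S100a6 was at 1.41 in c1 and -3.38 in c7 in the authors' deposited tables. Cells of c5 are part of the reference for c6, and cells of c6 part of that for c5, so these columns are not independent and no test of the difference was made.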

How the data were processed

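The authors' deposited tables set each of 7 clusters of cells against the rest, and c1 against c2. Per the file headers they give each gene a mean expression over all cells, a fold change, a p-value and an adjusted p-value. Mean expression and fold change were deposited as log2 values. This was read from the numbers, since the means summed over genes to 10000 in base 2 and to 34992 as a natural log. A spreadsheet error replaced the mean of 8 genes. Recomputing the Benjamini-Hochberg adjustment over 20062 genes gave the authors' adjusted p-values to within 1.89e-15. The reference was taken to be the cells outside a cluster. With it, the c1 and c2 tables rebuilt the table of c1 against c2 over 990 genes to a median absolute difference of 0.00200 (log2), against 0.129 for a reference of all cells. The fold changes were closer to ratios of back-transformed mean log values than to ratios of mean levels. Over 78 highly expressed genes the median residual was 0.00107 against 0.0206, a check tested on simulated data. Per the submitters' processing notes, GSNAP, HTSeq, Scanpy and GRCm38.p4 were used, with no role stated. The labels name droplet and SmartSeq2 libraries, and differ from the design text on the number of droplet samples per condition. The assay behind the tables, the clustering, cell filters, doublet removal, strandedness and the authors' test were not given in the sources used here. Cell number and depth are unknown, so no interval is given. If the authors tested cells, which are not replicates, calls describe these cells only.

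No new test was made. Calls used the authors' adjusted p-value under 0.05. The rule for named genes took the 6 markers, the 15 highest and 10 lowest called expressed genes, with ties broken by higher mean expression and predicted genes left out, and members of 41 gene lists, a few of which are not reported here by name. The members and lists were chosen with earlier results of these data known, so no list is independent evidence. Gene positions came from GENCODE M21, and promoters from RefSeq on GRCm38.p6, which held 13911 of the 20062 genes by symbol. For S100a8 and Mmp8 the end of the promoter was not found in a GENCODE transcript. Alternatives changed the threshold, the gene filter, the reference value and the list summary. Python 3.11.15, pandas 2.3.3, numpy 2.4.6 and scipy 1.17.1 were used.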

Additional observations from a re-analysis of the deposited data

How the results depend on the processing

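When direction was read against the median of expressed genes in place of 0, 3040 genes were called higher, and that choice alone moved a count of calls by more than 1.5 times. The median fold change was -4 over every gene and -1.46 with genes at either limit left out, against -2.24 over expressed genes, since the limits hold most weakly expressed genes. List medians relative to expressed genes kept their sign with expressed members alone except for multipotent progenitors (2.20) and heat shock (0.26). With the mean of members, monocyte (0.27), eosinophil (1.11) and multipotent progenitor (1.34) lists turned from below to above 0. With members at either limit left out, so did monocyte (4.05), dendritic cell (3.96), eosinophil (5.21), B cell (3.10), megakaryocyte (2.90), endothelial and stromal (4.45), multipotent progenitor (3.74) and heat shock (0.28) lists; the cause was not tested. Without members at either limit no value could be had for the specific granule, mast cell and basophil, T and NK cell and HSC identity lists, nor for eosinophil genes with expressed members alone. The planned share of summed expression is not reported, because the fold changes were closer to ratios of back-transformed mean log values. No paired analysis was possible because the tables hold no samples. Folds past the limits, errors and cell numbers are unknown here.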

Other observations

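Some genes called at the upper limit in c6 lie side by side in the genome. Of 19744 genes placed once on GRCm38 in GENCODE M21, 309 were called at the upper limit in the authors' deposited table, and 67 of these fell in 30 runs of neighbouring genes of the tables. The receptors Trem1, Trem3 and Treml4 form such a run on chromosome 17, as do the formyl peptide receptors Fpr1 and Fpr2. S100a8 and S100a9 are neighbours on chromosome 3, Ly6c2 and Ly6g on chromosome 15, and Fcgr4 and Fcgr3 on chromosome 1. On chromosome 7, C5ar2 lies beside C5ar1 and Cd177 beside Ceacam10, and on chromosome 10 Lyz2 lies beside Lyz1. On chromosome 6, Gpr27 lies beside Prok2, and Rpl3l, the ribosomal protein gene called higher, neighbours Msrb1 on chromosome 17. Treml4, C5ar2, Ceacam10, Prok2, Lyz1 and Rpl3l were named after their values were seen. The sources used here do not give strandedness or the handling of reads shared by neighbours or copies, and their part in these runs was not tested. Beyond the fixed lists, Cotl1 and Actn1, regulators of actin named after their values were seen, were at 4 in the authors' deposited table.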
